A study of Mus musculus with 12 samples.

Results

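A set of 10 genes that place, carry or remove histone methylation at promoters and enhancers was followed in *Dnmt3a/Flt3*- and *Tet2/Flt3*-mutant mouse AML exposed to the p300/CBP bromodomain inhibitor CCS1477. They were chosen by name from the table of 15651 genes, and all 10 were found: *Kmt2a*, *Kmt2b*, *Kmt2c*, *Kmt2d*, *Kmt2e*, *Setd1a*, *Men1*, *Dot1l*, *Kdm6a* and *Kdm6b*. The choice set no threshold on their values, and all 10 passed the filter on low values in every comparison.

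RNA-seq was performed on c-Kit-enriched leukemic splenocytes of 6 moribund mice, 3 per genotype, each split between CCS1477 and DMSO for 6 hours, which gave 12 libraries. Levels are given as TPM, a relative unit in which the transcripts of a library are scaled to a fixed total and divided by their length, so that different genes can be set beside each other. *D/F* mice carried Dnmt3a fl/fl and *T/F* mice carried Tet2 fl/fl, each with Mx1-Cre, and both genotypes shared 2 copies of the activated Flt3 ITD allele. Cre was not induced, so the floxed alleles were lost through leaky Mx1-Cre expression and 1 or 2 copies may be deleted in a given leukemia. Cells were held in medium with SCF, IL6 and IL3. CCS1477 was given at 4 μM to *D/F* cells and at 2 μM to *T/F* cells, so genotype and dose cannot be told apart in any comparison of the treated groups or of the responses. There was no untreated wild-type group, and the ages of these mice were not given in the sources used here.

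Methylation of lysine 4 of histone H3 (H3K4) marks active promoters and enhancers, and is laid down by COMPASS complexes, each built around a catalytic subunit of the MLL or SETD1 family. MLL1 and MLL2 (*Kmt2a*, *Kmt2b*) work with the scaffold protein menin (*Men1*), whereas MLL3 and MLL4 (*Kmt2c*, *Kmt2d*) write the H3K4 mono-methylation of enhancers together with the H3K27 demethylase UTX (*Kdm6a*). Loss of methyl groups from H3K27 frees the same lysine for acetylation by p300 and CBP, the proteins that CCS1477 displaces from chromatin. In AML, *KMT2A* is the gene broken in MLL-rearranged leukemia, and DOT1L, the H3K79 methyltransferase, is recruited by MLL fusion proteins to the *HOXA* genes.

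The DNA just before the start of these genes is shown for the members whose levels are discussed most. RefSeq windows on GRCm38.p6 were found for 7 of the 10 genes, and each sequence below runs 5′ to 3′ on the gene's strand and ends where the first annotated exon begins. Capitals mark matches, on either strand, to the GC box GGGCGG, the ETS core CCGGAA, the E-box CACGTG or the CCAAT box.
Kmt2a, chr9:44881297-44881539, minus strand: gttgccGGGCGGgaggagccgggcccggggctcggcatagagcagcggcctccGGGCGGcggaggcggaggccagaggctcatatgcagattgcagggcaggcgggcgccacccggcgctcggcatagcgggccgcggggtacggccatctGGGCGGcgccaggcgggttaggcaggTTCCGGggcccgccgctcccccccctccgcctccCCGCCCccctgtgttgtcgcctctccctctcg
Kmt2c, chr5:25498784-25499033, minus strand: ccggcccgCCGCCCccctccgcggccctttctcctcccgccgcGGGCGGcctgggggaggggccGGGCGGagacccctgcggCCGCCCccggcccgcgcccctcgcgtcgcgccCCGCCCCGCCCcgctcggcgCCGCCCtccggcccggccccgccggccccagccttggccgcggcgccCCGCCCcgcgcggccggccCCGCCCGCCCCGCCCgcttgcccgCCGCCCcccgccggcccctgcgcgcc
Kdm6a, chrX:18162325-18162574, plus strand: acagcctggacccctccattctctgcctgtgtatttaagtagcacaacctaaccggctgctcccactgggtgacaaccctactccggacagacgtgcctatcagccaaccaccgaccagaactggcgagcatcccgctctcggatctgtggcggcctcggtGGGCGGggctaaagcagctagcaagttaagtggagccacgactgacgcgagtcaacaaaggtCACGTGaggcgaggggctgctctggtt
Dot1l, chr10:80754953-80755202, plus strand: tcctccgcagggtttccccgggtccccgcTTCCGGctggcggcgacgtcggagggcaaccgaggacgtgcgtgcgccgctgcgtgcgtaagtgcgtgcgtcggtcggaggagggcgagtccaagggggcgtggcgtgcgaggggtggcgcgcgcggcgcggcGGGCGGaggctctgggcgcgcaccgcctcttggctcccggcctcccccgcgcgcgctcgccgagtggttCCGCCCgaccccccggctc

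The *Kmt2c* window held 12 GC boxes, of which neighbouring matches share 4 bases in all, with 48 CpG dinucleotides and a GC content of 91.6%. The *Kmt2a* window held 4 GC boxes and 1 ETS core, and the *Dot1l* window 2 GC boxes and 1 ETS core. *Kdm6a*, on the X chromosome, differed in makeup with 1 GC box, 1 E-box and 15 CpG. Across all 32851 windows of the same length, 32.7% held a GC box, 12.03% an ETS core, 6.02% the E-box and 33.8% a CCAAT box, and the median was 6 CpG. *Kmt2d* held 4 GC boxes and *Men1* a GC box and a CCAAT box, while 209 of the 250 bases of the *Setd1a* window lie in its own exons. The letters of the cyclic AMP response element, TGACGTCA, were in none of these windows and in 1.55% of all windows.

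All 10 genes were measured in every library, at levels that differed widely between them. By the mean of the 12 libraries, *Kmt2e* was highest at 102.9 TPM, above 90.0% of all genes in the table. *Kmt2c* followed at 71.2 TPM. *Setd1a* (53.2), *Kmt2a* (50.5), *Dot1l* (50.1), *Kdm6a* (47.7), *Kmt2b* (46.4) and *Men1* (43.1) lay close together in mean TPM. *Kdm6b*, the H3K27 demethylase JMJD3, was lower at 23.1 TPM, and *Kmt2d* was lowest at 6.88 TPM, above only 31.1% of genes. The genes of the 2 catalytic subunits of the enhancer complexes, *Kmt2c* and *Kmt2d*, thus sat near opposite ends of the list. In the *T/F* DMSO libraries the ranges of neighbouring genes separated between *Kmt2e* and *Setd1a*, between *Kmt2b* and *Men1*, between *Kdm6a* and *Kdm6b*, and between *Kdm6b* and *Kmt2d*. In the *D/F* DMSO libraries they separated between *Setd1a* and *Dot1l*, between *Kmt2a* and *Kdm6b* and between *Kdm6b* and *Kmt2d*. All other neighbours in the order overlapped.

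The libraries themselves varied in ways the groups do not explain. Replicates within a group correlated at 0.947 to 0.991 over all genes. Among the *D/F* mice, mouse 2 stood apart. The summed TPM of 10 myeloid progenitor markers was 4009 in its DMSO library against 8096 and 10388 in the other *D/F* mice. Its sum of 8 mature neutrophil markers was 2689 against 6302 and 9465. Its sum over the 7 erythroid and megakaryocyte markers found in the table was 210, the highest of the 12 libraries. Low sums were not particular to it. In the DMSO library of *T/F* mouse 3 the progenitor sum was 4476, against 6701 and 6011 in *T/F* mice 1 and 2. The neutrophil sum of *T/F* mouse 3 was 2336, against 7169 and 5659. The progenitor markers of *D/F* mouse 2 with DMSO went both ways. Among the *D/F* mice its *Mpo*, *Elane*, *Prtn3*, *Ctsg* and *Spi1* were lowest and its *Cebpa* lay between. Its *Kit* (149 TPM against 50.5 and 60.9), *Cd34* (447 against 110 and 138), *Flt3* and *Csf3r* were highest. *D/F* mice 2 and 3 also had low levels of Y-linked transcripts, described with *Kdm6a*. With CCS1477, the progenitor sum was lower in all 6 mice. So were the sum of the 6 macrophage and dendritic cell markers found of 8, at 22.3-39.3 TPM with DMSO and 6.77-17.9 TPM with CCS1477, and the erythroid and megakaryocyte sum, at 34.9-210 and 22.3-68.5 TPM. The *T/F* sum of the 3 B cell markers found of 6 went from 49.8-59.0 to 104-132 TPM. *Ighm* made the increase, while *Cd79b* went from 15.3-18.1 to 10.9-13.4 TPM and *Pax5* was lower in each *T/F* mouse. In *D/F* the sum was higher in mouse 1 and lower in mice 2 and 3. The 4 of 7 T and NK cell markers found summed to 13.8-28.1 TPM. In bulk RNA, fewer cells of a type and less RNA per cell cannot be told apart, and the part of these shifts in the results below was not tested.

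The response to CCS1477 was read within each genotype and then over both together. *Kmt2a*, *Kmt2c*, *Kmt2e* and *Kdm6a* were higher with CCS1477 in 6 of 6 mice, and *Kdm6b*, *Setd1a* and *Dot1l* were lower in 6 of 6 mice. These 7 of 10 stand beside 55.2% of all genes that moved the same way in all 6 mice (31.4% higher, 23.8% lower). The changes were modest, and no member was called above 2-fold, where 7.28% of all genes were in *D/F*, 7.33% in *T/F* and 8.80% over both genotypes. Over both genotypes, limma called 5 members at a Benjamini-Hochberg adjusted p under 0.05, with *Kmt2a*, *Kmt2c* and *Kmt2e* higher and *Kdm6b* and *Setd1a* lower. The share called among all 15583 genes tested was 45.3% (25.8% higher, 19.6% lower), close to the share of members. With the mouse as a block it called 7 members (4 higher, 3 lower), where 60.3% of all genes were called (34.5% higher, 25.9% lower). Log2 differences from limma were taken after adding 1 TPM, so the change of a low gene is understated. The log2 ratios within mice and between related genes were taken from TPM with nothing added. Changes of single genes are relative, because no spike-in was measured.

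**Figure D1:**
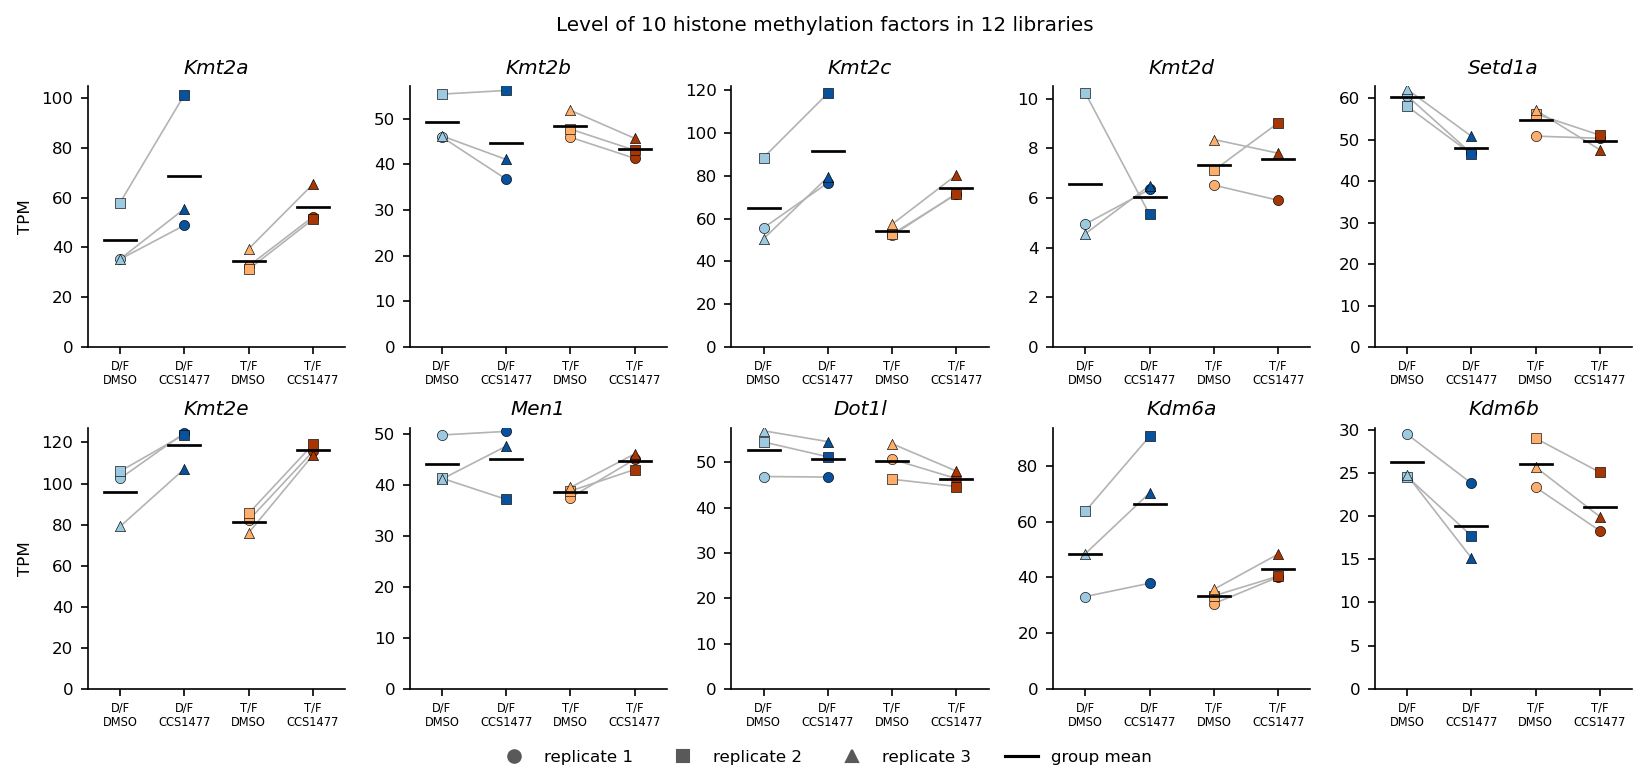
TPM of each gene in the 12 libraries, with a linear axis from 0 in each panel; points are mice, grey lines join the DMSO and CCS1477 libraries of a mouse and black bars are group means (n = 3). The lines of *Kmt2a*, *Kmt2c*, *Kmt2e* and *Kdm6a* rise in all 6 mice and those of *Kdm6b*, *Setd1a* and *Dot1l* fall in all 6.

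*Kmt2a* encodes MLL1, the methyltransferase that keeps *Hoxa* genes on in hematopoietic stem cells. In *D/F* cells it measured 35.2, 58.0 and 35.3 TPM with DMSO in mice 1, 2 and 3, and 48.9, 101 and 55.5 TPM with CCS1477. In *T/F* cells it measured 32.5, 31.2 and 39.4 TPM with DMSO and 52.3, 51.3 and 65.4 TPM with CCS1477. Every *T/F* treated library lay above every *T/F* DMSO library, while in *D/F* the DMSO library of mouse 2 lay above 2 of the treated libraries. The *T/F* difference was 0.70 log2 (SE 0.13, limma adjusted p = 0.00911), a fold of 1.62. The *D/F* difference was of similar size with a wider error, 0.63 (SE 0.34, limma adjusted p = 0.263). In the fit that takes the mouse as a block it passed (limma adjusted p = 0.0166), and it also passed without *D/F* mouse 2, at 0.55. Over the 6 mice the log2 ratio of treated to DMSO was 0.68 ± 0.11 (SD, n = 6), from 0.47 to 0.80, and higher in 6 of 6 (exact paired permutation p = 0.03125, two-sided, the smallest that 6 pairs can give).

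*Kmt2b*, the closest relative of *Kmt2a*, did not follow it. It measured 45.9, 55.3 and 46.2 TPM with DMSO and 36.7, 56.1 and 41.0 TPM with CCS1477 in *D/F* cells. The *T/F* libraries gave 45.9, 47.7 and 51.8 TPM with DMSO and 41.3, 43.1 and 45.7 TPM with CCS1477. The *T/F* groups were separate by a narrow margin, with all treated libraries lower, and the *D/F* groups overlapped. The difference was -0.16 log2 in *T/F* (SE 0.08, limma adjusted p = 0.145) and -0.15 in *D/F* (SE 0.20, limma adjusted p = 0.657). It was lower in 5 of 6 mice. Over both genotypes it did not pass in the main fit (-0.16, limma adjusted p = 0.241). It passed under 3 of 13 alternatives, among them the mouse as a block (limma adjusted p = 0.0400).

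The balance of *Kmt2a* to *Kmt2b* shifted by nearly the same amount in every mouse. The TPM ratio in *D/F* mice 1, 2 and 3 went from 0.767, 1.05 and 0.764 with DMSO to 1.33, 1.80 and 1.35 with CCS1477. In *T/F* mice 1, 2 and 3 it went from 0.709, 0.654 and 0.761 to 1.27, 1.19 and 1.43. With DMSO, *Kmt2b* was the higher of the pair in 5 of 6 mice, and with CCS1477 *Kmt2a* was the higher in 6 of 6. The shift in the log2 ratio was 0.84 ± 0.05 (SD, n = 6), from 0.78 to 0.91 (exact paired permutation p = 0.03125, also after Benjamini-Hochberg adjustment over the 3 ratios compared). *D/F* mouse 2, whose levels of both genes were the highest with DMSO, had the lowest of the 6 shifts, and the mean shift without it was 0.85.

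*Men1* encodes menin, the scaffold that tethers MLL1 and MLL2 to chromatin. In *D/F* cells it measured 49.8, 41.3 and 41.1 TPM with DMSO and 50.5, 37.2 and 47.6 TPM with CCS1477. In *T/F* cells it measured 37.5, 38.8 and 39.5 TPM with DMSO and 45.0, 43.0 and 46.1 TPM with CCS1477. The *T/F* groups did not overlap and the *D/F* groups did. The *T/F* difference was 0.21 log2 (SE 0.06, limma adjusted p = 0.0370), the smallest rise among the 5 members called in *T/F*, and it lost its call when each library was rescaled to its median gene. The *D/F* difference was 0.03 (SE 0.18, limma adjusted p = 0.942), and it turned to -0.021 under that rescaling. With DMSO, *Men1* was lower in all 3 *T/F* than in all 3 *D/F* libraries (exact permutation p = 0.1, the smallest that 3 against 3 allows). The share of all genes separated in this way between the genotypes was not counted.

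**Figure D2:**
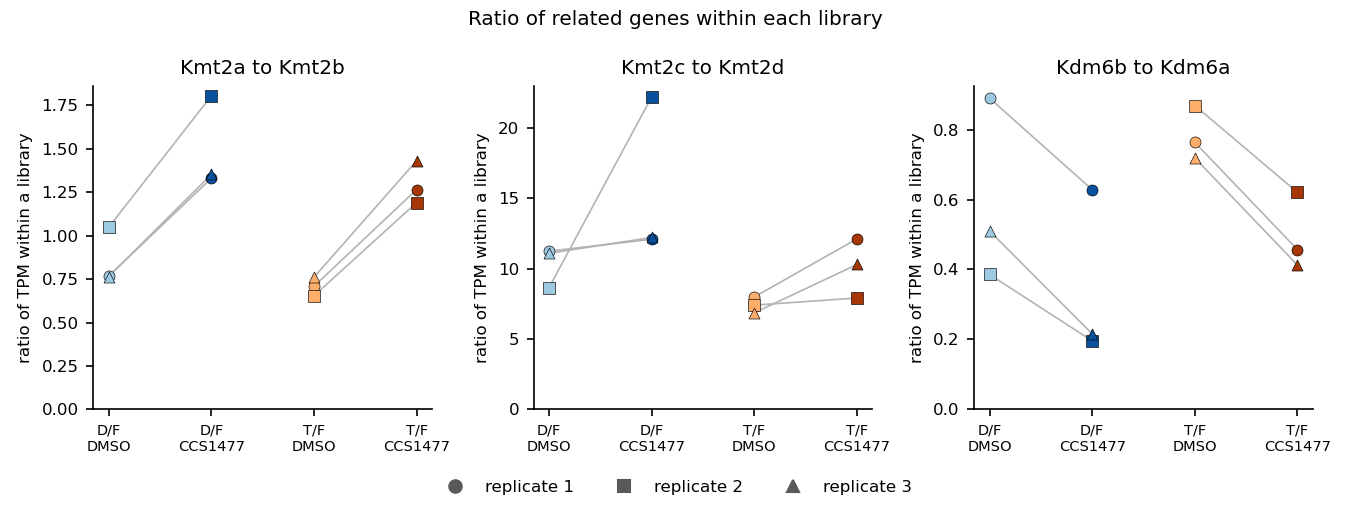
Ratio of TPM within each library for 3 pairs of related genes, on linear axes from 0; points are mice (n = 3 per genotype) and grey lines join the DMSO and CCS1477 libraries of a mouse. *Kmt2a* to *Kmt2b* and *Kmt2c* to *Kmt2d* are higher with CCS1477 in 6 of 6 mice and *Kdm6b* to *Kdm6a* is lower in 6 of 6.

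*Kmt2c* encodes MLL3, a writer of enhancer H3K4 mono-methylation and a tumor suppressor in myeloid leukemia. It measured 55.6, 88.5 and 50.6 TPM with DMSO and 76.7, 119 and 79.4 TPM with CCS1477 in *D/F* cells. The *T/F* libraries gave 52.1, 52.7 and 57.3 TPM with DMSO and 71.6, 71.4 and 80.4 TPM with CCS1477. As for *Kmt2a*, the *T/F* groups were fully separate, and the high DMSO library of *D/F* mouse 2 made the *D/F* groups overlap. The *T/F* difference was 0.45 log2 (SE 0.08, limma adjusted p = 0.00602), a fold of 1.37. The *D/F* difference was 0.50 (SE 0.28, limma adjusted p = 0.279), and it passed in the blocked fit (limma adjusted p = 0.0214) and without *D/F* mouse 2, at 0.55. The log2 ratio over the 6 mice was 0.49 ± 0.08 (SD, n = 6), from 0.42 to 0.65.

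*Kmt2d* encodes MLL4, the other enhancer methyltransferase, and is a recurrent mutation target in lymphoma. It measured 4.95, 10.2 and 4.56 TPM with DMSO and 6.34, 5.33 and 6.50 TPM with CCS1477 in *D/F* cells. In *T/F* cells it measured 6.52, 7.11 and 8.35 TPM with DMSO and 5.91, 9.02 and 7.80 TPM with CCS1477. The groups overlapped in both genotypes, and the gene was higher with CCS1477 in 3 mice and lower in 3. The difference over both genotypes was 0.00 log2 (SE 0.17, 95% interval -0.37 to 0.37, limma adjusted p = 0.997). Its sign depended on single mice and on the scaling, and without *D/F* mouse 2 the *D/F* difference was 0.37. With DMSO the TPM ratio of *Kmt2c* to *Kmt2d* was 6.86 to 11.2, and with CCS1477 it was 7.91 to 22.2, the highest in *D/F* mouse 2. The shift was 0.48 ± 0.49 log2 (SD, n = 6), up in 6 of 6 mice (exact paired permutation p = 0.03125), with a range from 0.10 to 1.36. Without *D/F* mouse 2 the shift was 0.31. *Kmt2c* alone rose in 6 of 6 mice with the same exact paired permutation p. The share of other gene pairs that shift one way in all mice was not counted for any of the ratios.

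*Kmt2e* encodes MLL5, a relative of the MLL proteins with no established H3K4 methyltransferase activity, which is needed for hematopoietic stem cell fitness. It measured 102, 106 and 79.1 TPM with DMSO and 125, 124 and 107 TPM with CCS1477 in *D/F* cells. The *T/F* libraries gave 82.1, 85.5 and 76.0 TPM with DMSO and 116, 119 and 114 TPM with CCS1477. Treated and DMSO libraries were separate in both genotypes, in *D/F* by a narrow margin. The *T/F* difference was 0.51 log2 (SE 0.07, limma adjusted p = 0.00257), a fold of 1.43, and the *D/F* difference was 0.31 (SE 0.17, limma adjusted p = 0.281). *Kmt2e* was called in *T/F* without each *T/F* mouse in turn.

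*Setd1a* encodes a catalytic subunit of the SETD1 COMPASS complexes, which write most promoter H3K4 tri-methylation, and AML cells depend on it. It measured 60.7, 58.1 and 62.2 TPM with DMSO and 46.7, 46.6 and 50.9 TPM with CCS1477 in *D/F* cells. In *T/F* cells it measured 50.9, 56.3 and 57.2 TPM with DMSO and 50.4, 51.1 and 47.6 TPM with CCS1477. In *D/F* the treated libraries were all lower, by a wide margin, and in *T/F* the groups overlapped slightly. The *D/F* difference was -0.32 log2 (SE 0.13, limma adjusted p = 0.165), and it passed in the blocked fit (limma adjusted p = 0.0444). The *T/F* difference was -0.14 (SE 0.07, limma adjusted p = 0.180). Over both genotypes *Setd1a* fell by 0.23 on the log2 scale (SE 0.07, limma adjusted p = 0.0156), a direction opposite to that of *Kmt2a*, *Kmt2c* and *Kmt2e*. The annotated gene overlaps another protein-coding gene on the same strand, *Gm49388*, so reads could be split between them.

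*Dot1l*, the H3K79 methyltransferase, was the steadiest of the members. It measured 46.9, 54.5 and 57.0 TPM with DMSO and 46.8, 51.3 and 54.6 TPM with CCS1477 in *D/F* cells. The *T/F* libraries gave 50.7, 46.3 and 54.1 TPM with DMSO and 46.4, 44.7 and 48.1 TPM with CCS1477. The groups overlapped in both genotypes, although each mouse was slightly lower with CCS1477. The mean log2 ratio was -0.08 ± 0.06 (SD, n = 6). The limma difference over both genotypes was -0.08 (SE 0.07, 95% interval -0.25 to 0.08, adjusted p = 0.400).

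**Figure D3:**
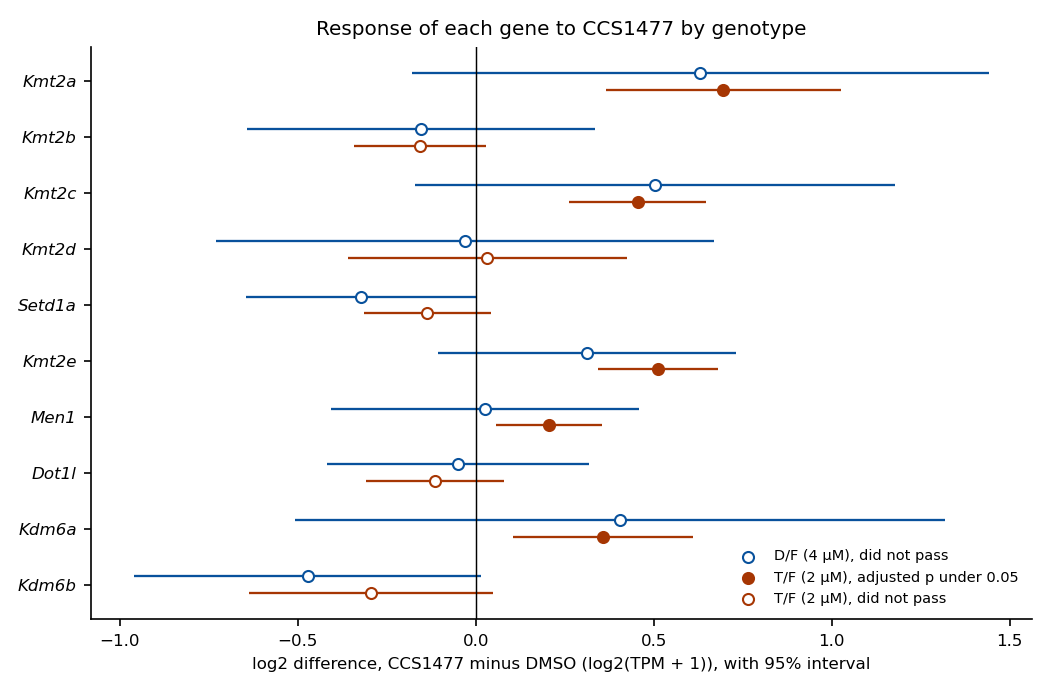
Log2 difference between CCS1477 and DMSO for each gene, on the log2(TPM + 1) scale, with 95% intervals from limma (n = 3 against 3); blue is *D/F* at 4 μM, brown is *T/F* at 2 μM, and filled points passed an adjusted p of 0.05. The *D/F* and *T/F* points of a gene lie close together, and the *D/F* intervals are the wider.

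The H3K27 demethylases differed in the direction of their change, *Kdm6b* being lower and *Kdm6a* higher with CCS1477 in 6 of 6 mice. *Kdm6b* encodes JMJD3, an inducible enzyme of inflammatory and differentiation responses. In *D/F* cells it measured 29.5, 24.6 and 24.7 TPM with DMSO and 23.8, 17.7 and 15.2 TPM with CCS1477. In *T/F* cells it measured 23.3, 29.0 and 25.7 TPM with DMSO and 18.3, 25.1 and 19.9 TPM with CCS1477. The *D/F* treated libraries were all lower than the DMSO libraries, and the *T/F* groups overlapped through mouse 2, which was the highest of its genotype under both conditions. The difference was -0.47 log2 in *D/F* (SE 0.20, limma adjusted p = 0.176, 0.0356 with the mouse as a block) and -0.30 in *T/F* (SE 0.14, limma adjusted p = 0.139, 0.0183 with the block). Over both genotypes *Kdm6b* fell by 0.38 on the log2 scale (SE 0.12, limma adjusted p = 0.0230). The annotated antisense gene *Kdm6bos* overlaps it.

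*Kdm6a* encodes UTX, the X-linked subunit of the MLL3 and MLL4 complexes and a tumor suppressor in AML. In *D/F* cells it measured 33.1, 63.7 and 48.5 TPM with DMSO and 37.9, 90.5 and 70.3 TPM with CCS1477. The *T/F* libraries gave 30.5, 33.4 and 35.7 TPM with DMSO and 40.1, 40.4 and 48.3 TPM with CCS1477. The *T/F* groups were separate, and the *D/F* groups overlapped because the 3 mice started at different levels. The *T/F* difference was 0.36 log2 (SE 0.10, limma adjusted p = 0.0347). The *D/F* difference was 0.41 (SE 0.38, limma adjusted p = 0.518). In the blocked *D/F* fit the limma adjusted p was 0.04995, just under the threshold, and over both genotypes the difference of 0.38 had a limma adjusted p of 0.149 without and 0.00126 with the block. Each of the 6 mice was higher with CCS1477, by a log2 ratio of 0.19 to 0.54.

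The log2 ratio of *Kdm6b* to *Kdm6a* fell by 0.79 ± 0.29 (SD, n = 6; exact paired permutation p = 0.03125), with shifts from -1.24 to -0.49. Because *Kdm6b* fell and *Kdm6a* rose in 6 of 6 mice, the ratio had to fall in each. Its p was therefore fixed by the changes of the 2 genes and adds nothing to them. The TPM ratio in *D/F* mice 1, 2 and 3 went from 0.890, 0.386 and 0.510 to 0.628, 0.196 and 0.216. In *T/F* mice it went from 0.763, 0.869 and 0.719 to 0.457, 0.620 and 0.412. *Kdm6a* was the higher of the pair in every library.

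The spread of *Kdm6a* among *D/F* mice went with the level of Y-linked genes. The summed TPM of *Ddx3y*, *Eif2s3y* and *Kdm5d* was 112 and 127 in the DMSO and CCS1477 libraries of *D/F* mouse 1, and 103 to 137 in the *T/F* libraries. It was 3.25 and 3.96 in *D/F* mouse 2 and 2.75 and 3.41 in *D/F* mouse 3. *D/F* mouse 1, with Y-linked levels like those of the *T/F* mice, also had *Kdm6a* near the *T/F* levels, and the 2 mice low in Y-linked transcripts had the highest *Kdm6a* of all 6 mice under both conditions. *Uty*, the Y-linked counterpart of *Kdm6a*, measured 35.6 and 41.6 TPM in *D/F* mouse 1, 37.9 to 52.7 TPM in the *T/F* libraries, 7.38 and 9.48 TPM in *D/F* mouse 2 and 6.62 and 4.27 TPM in *D/F* mouse 3. The X-linked demethylase *Kdm5c* was also higher in *D/F* mice 2 and 3 with DMSO (83.8 and 78.8 TPM) than in *D/F* mouse 1 (59.1) and the *T/F* mice (57.9 to 62.6). The sex of the mice is not given in the labels, and its part in the *Kdm6a* levels was not tested. *Kdm6a* and *Uty* are near copies, so their reads may be split between them. Their sum with DMSO was 65.0 ± 8.62 TPM in *D/F* and 72.2 ± 1.75 TPM in *T/F* (SD, n = 3; exact permutation p = 0.2), and with CCS1477 it was 84.7 ± 13.5 and 90.4 ± 10.2 TPM (exact permutation p = 0.5).

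**Figure D4:**
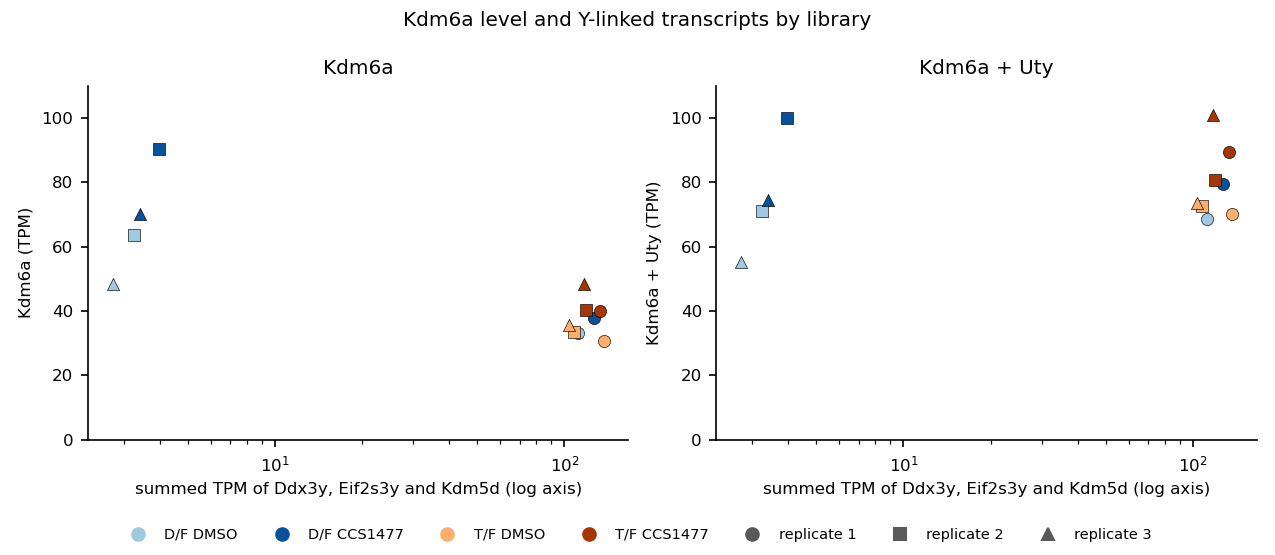
*Kdm6a* alone (left) and *Kdm6a* plus *Uty* (right) in TPM against the summed TPM of 3 Y-linked genes on a log axis; colors are groups and shapes are mice. The 4 libraries of *D/F* mice 2 and 3 lie at 2.75 to 3.96 TPM of Y-linked transcripts and between 48.5 and 90.5 TPM of *Kdm6a*.

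Counted within each genotype, limma called 0 of the 10 members in *D/F* cells (0 at an unadjusted p under 0.05, against 30.4% of all genes) where 11.6% of all genes were called (5.14% higher, 6.51% lower). With the mouse as a block, which removes the differences between mice, it called 5: *Kmt2a*, *Kmt2c* and *Kdm6a* higher and *Kdm6b* and *Setd1a* lower, where 39.3% of all genes were called (21.4% higher, 18.0% lower). In *T/F* cells it called 5 members, *Kmt2a*, *Kmt2c*, *Kmt2e*, *Men1* and *Kdm6a*, all higher, where 43.4% of all genes were called (25.8% higher, 17.6% lower), and the block added *Kdm6b* as lower, where 54.1% of all genes were called (31.2% higher, 22.9% lower). The members' median log2 difference was -0.00 for *D/F* and 0.12 for *T/F*, and that of all genes was 0.06 and 0.07. CCS1477 and DMSO libraries did not overlap for 3 members in *D/F*, 1 higher and 2 lower, and for 36.6% of all genes (19.9% higher, 16.7% lower). In *T/F* they did not overlap for 6 members, 5 higher and 1 lower, and for 56.1% of all genes (33.5% higher, 22.6% lower). Leaving out any 1 of the *T/F* mice lowered the *T/F* count to between 1 and 3 members, and that of all genes to between 3192 and 5122 (20.9 to 33.7%).

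No difference in response between the genotypes was called for any member. The limma test of the difference itself called 0 of 10 members, with 0 at an unadjusted p under 0.05 (4.23% of all genes), and it called 0% of all 15583 genes. The 95% intervals were wide, from -0.80 to 0.93 log2 for *Kmt2a* and from -0.99 to 0.90 for *Kdm6a*, and narrower for *Kmt2e* (-0.19 to 0.59), *Setd1a* (-0.10 to 0.47) and *Dot1l* (-0.41 to 0.28). In the blocked fit they were -0.20 to 0.33 for *Kmt2a* and -0.35 to 0.25 for *Kdm6a*, and limma again called 0 of 10 members, with 0 at an unadjusted p under 0.05. The shares of all genes in that blocked fit are not given here, so its count of members cannot be set beside them.

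The genotypes were also compared with DMSO alone. Limma called 0 of 10 members there (0 at an unadjusted p under 0.05, against 6.15% of all genes), where 0.0328% of all genes were called. The largest difference was that of *Kdm6a*, -0.49 log2 in *T/F* relative to *D/F* (SE 0.24, limma adjusted p = 0.866), which rested on *D/F* mice 2 and 3. *Men1* and *Setd1a* were lower in all 3 *T/F* DMSO libraries (exact permutation p = 0.1 for each, the smallest possible). The share of all genes separated in this way was not counted, and with CCS1477 the genotypes overlapped for every member. With CCS1477, limma called 0 of 10 members (0 at an unadjusted p under 0.05, against 10.8% of all genes), where 0.0329% of all genes were called. Whole-gene levels were only an indirect check of the genotype labels. Transcripts of a deleted allele can still be counted outside the deleted exons, and single exons were not examined. *Dnmt3a* measured 39.4 ± 14.3 TPM in *D/F* and 45.3 ± 7.55 TPM in *T/F* with DMSO, and *Tet2* measured 41.2 ± 2.63 and 33.4 ± 3.03 TPM (SD, n = 3). *Tet2* was lower in every *T/F* than in every *D/F* library with DMSO and with CCS1477 (24.6-28.7 against 32.5-35.6 TPM). *Dnmt3a* overlapped between the genotypes under both conditions.

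Gene lists of the members' working partners were read beside them. Their counts stand beside the 11.6% of all genes called in *D/F* and 43.4% in *T/F* (39.3% and 54.1% with the block). Of 16 other COMPASS subunits and associated factors, 4 rose and 2 fell in *T/F* cells, and limma called 0 of 16 in *D/F* (2 at an unadjusted p under 0.05). The blocked fit called 3 of 16 in *D/F* and 10 of 16 in *T/F*. Among those called in *T/F*, named here after their values were seen, were *Psip1* (LEDGF, which anchors MLL1 and menin to chromatin) at 0.74 log2 and *Wdr5*, the core subunit shared by all COMPASS complexes, at -0.44. The list of 7 made of the H3K4 demethylases and *Uty* had medians of 0.38 log2 in *D/F* and 0.40 in *T/F*. Of the 7, 1 was called in *D/F* and 5 in *T/F*, all higher, and with the block 4 and 5. *Kdm1b* (LSD2), the only one called in both without the block, measured 1.12 (SE 0.23, limma adjusted p = 0.0308) in *D/F* and 0.58 (SE 0.09, limma adjusted p = 0.00385) in *T/F*. Of the 10 elongation partners of *Dot1l*, 1 was called in *D/F*, and 4 rose and 1 fell in *T/F*, while the blocked fit called 6 and 7. *Mllt3* (AF9), which brings DOT1L to chromatin and is a frequent MLL fusion partner, rose in both, by 1.18 (SE 0.24, limma adjusted p = 0.0306) and 1.20 (SE 0.10, limma adjusted p = 0.000777).

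Genes that depend on MLL1 and menin in leukemia were called in both directions. Of the 14 listed, 13 were in the table. In *D/F* cells 1 rose and 1 fell, and in *T/F* cells 3 rose and 3 fell, beside 11.6% and 43.4% of all genes called. The blocked fit called 5 of 13 (2 higher, 3 lower) and 9 of 13 (5 higher, 4 lower), beside 39.3% and 54.1%. *Pbx3*, a partner of HOXA9, rose by 1.45 (SE 0.24, limma adjusted p = 0.0189) in *D/F* and by 1.37 (SE 0.07, limma adjusted p = 0.000336) in *T/F*. *Cdk6*, a cell cycle kinase on which MLL leukemias depend, fell by 2.47 (SE 0.17, limma adjusted p = 0.00310) in *D/F* and by 1.77 (SE 0.18, limma adjusted p = 0.00120) in *T/F* on the log2 scale. The list's median was -0.16 for *D/F* cells and 0.18 for *T/F* cells, beside 0.06 and 0.07 for all genes.

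**Figure D5:**
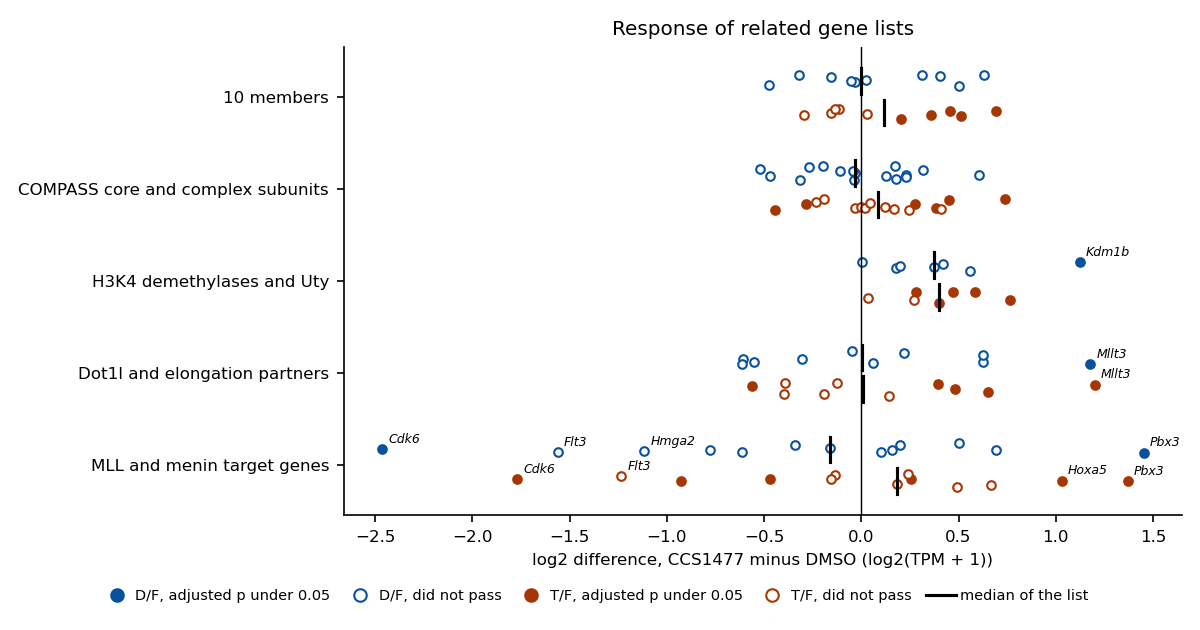
Log2 difference between CCS1477 and DMSO, on the log2(TPM + 1) scale, for the members and for 4 lists of related genes; each point is a gene, blue in *D/F* and brown in *T/F*, filled where limma called it, and black bars are medians. The medians of the H3K4 demethylase list lie at 0.38 and 0.40, with *Uty* near 0 in *D/F*, while the members spread on either side of 0.

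Across libraries, the members differed in how they moved between mice. After the group means were taken out, *Kmt2a* and *Kmt2b* correlated at 0.97 and *Kmt2a* and *Kmt2c* at 0.95 over the 12 libraries, 2 of which came from each mouse. These values describe the libraries only, and *D/F* mouse 2 was the highest of its group for all 3 genes under both conditions. Over the 12 libraries with the group differences kept, the genes most like *Kmt2a* among 11603 genes were *Zfp866* (Pearson r = 0.988), *E130307A14Rik* (0.984) and *Pogz* (0.984). Those most like *Kmt2c* were *Pfkfb2* (0.995), *Zfp606* (0.994) and *Usp54* (0.992).

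The members also differ in their genes. On GRCm38 (GENCODE vM21), *Kmt2c* (ENSMUSG00000038056) spans 227.0 kb at chr5:25271798-25498783, *Kdm6a* (ENSMUSG00000037369) 117.4 kb at chrX:18162575-18279936, *Kmt2a* (ENSMUSG00000002028) 77.9 kb at chr9:44803355-44881296 and *Kmt2e* (ENSMUSG00000029004) 69.8 kb at chr5:23434441-23504235. The remaining members are shorter. *Dot1l* (ENSMUSG00000061589) lies at chr10:80755206-80795461, *Kmt2d* (ENSMUSG00000048154) at chr15:98831669-98871204, *Setd1a* (ENSMUSG00000042308) at chr7:127776670-127800122, *Kmt2b* (ENSMUSG00000006307) at chr7:30568858-30588726, *Kdm6b* (ENSMUSG00000018476) at chr11:69398508-69413675 and *Men1* (ENSMUSG00000024947) at chr19:6334979-6340891. *Kmt2e* overlaps *Srpk2* on the other strand, and antisense genes overlap *Kmt2a* and *Dot1l*. Libraries were made with a stranded kit, and whether the quantification used the strand is not given in the sources used here.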

How the data were processed

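RNA-seq of 12 libraries was analysed from gene-level TPM, which the authors deposited as kallisto output. The submitters' processing notes name kallisto and mm10. Its version and the annotation are not given in the sources used here, and AltAnalyze is the study's stated tool for differential expression. The deposited TPM were neither pooled nor log-transformed. Libraries sum to 914204 to 931697 TPM and the lowest of the genes' maxima is 2.00 TPM, so low genes had been left out. TPM keeps no read numbers: the depth is unknown, no count model was fitted, and the spread between 3 mice gives the precision. Columns were matched to samples by mouse number, genotype and treatment. Symbols were found for 15252 identifiers and not for 399.

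Each comparison was fitted to log2(TPM + 1) with limma 3.58.1 (R 4.3.3, eBayes without trend, two-sided), over all genes that averaged 1 TPM or more in 1 of its groups, and p-values were adjusted over these genes by Benjamini-Hochberg. A call is an adjusted p under 0.05 at any fold. CCS1477 and DMSO were compared for each genotype and over both with genotype as a covariate, the genotypes were compared under each condition, and the difference of the responses was tested in a fit of all 4 groups. The study's methods do not say whether mice were paired, and the main fit has no block. The sample records give the mouse, and DMSO and CCS1477 libraries of a mouse deviated together (r = 0.354 to 0.669, at most 0.141 between mice), so blocked fits, with a term for the mouse, were added. Ratios over 6 mice had exact paired permutation tests. The unblocked limma fits were tested on simulated data without differences between mice. The blocked fits and the exact tests were not tested in this way. Alternatives were other pseudocounts, filters, scalings, an eBayes trend, a 2-fold threshold, a shared fit and leaving out each mouse.

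The members, gene lists and tests were chosen with earlier results of these data known. Named were all members, the 3 genes most correlated with each of the 2 members of largest change among genes averaging 5 TPM or more, and up to 4 genes of each list called in both genotypes in the same direction. Promoter windows come from RefSeq (GRCm38.p6) and positions from GENCODE vM21 (GRCm38).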

Additional observations from a re-analysis of the deposited data

How the results depend on the processing

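The depth behind TPM is unknown, and with 3 mice per genotype the spread between mice limits what could be called. Over the 350 values of single members under an alternative, 301 kept their direction and their side of the threshold, 16 passed it newly, 22 lost it and 11 turned in sign. The count of 0 members in *D/F* became 5 with the replicate block and 1 (*Setd1a*) in a fit of all 4 groups with 1 shared spread. Leaving out each mouse gave 0 to 2, with *Kmt2a* and *Kmt2c* called without *D/F* mouse 2 (24.6% of all genes), while without mouse 1 or mouse 3 limma called 0 of all genes. The count of 5 in *T/F* became 1 (*Kmt2e*) in the shared fit and 0 above 2-fold, and leaving out a mouse gave 1 to 3 (*Kmt2e* alone without mouse 1 or 2), beside 20.9 to 33.7% of all genes. The count of 5 over both genotypes became 0 above 2-fold, and 2 to 7 without each mouse (2 without *T/F* mouse 3, *Kmt2a* and *Kmt2e*), beside 36.3 to 55.4% of all genes. Rescaling each library to its median gene kept 5 in *T/F* but called *Kmt2b* lower in place of *Men1*, so the split went from 5 higher and 0 lower to 4 and 1. The shares of all genes called in the shared fit and after rescaling are not given here. The counts of members in those fits therefore cannot be set beside them. The block left the 0 members called for the difference between genotypes at 0, and the share of all genes in that fit is not given here. Of the members, *Men1* and *Kmt2d* turned in sign, none of them called: *Men1* in *D/F* to -0.021 after rescaling, and *Kmt2d* to -0.037 in *T/F* and -0.051 over both genotypes after rescaling and to -0.040 and -0.057 after quantile normalization. Leaving out a mouse moved *Men1* in *D/F* between -0.065 (without mouse 3) and 0.11, and *Kmt2d* between -0.26 and 0.37 (without mouse 2) in *D/F*, between -0.10 (without mouse 2) and 0.11 in *T/F*, and between -0.085 (without *D/F* mouse 3) and 0.17 over both, where it was also negative without *D/F* mouse 1 or *T/F* mouse 2 (-0.060 each). Without each mouse in turn, the log2 ratio shifted by 0.82 to 0.85 for *Kmt2a* to *Kmt2b*, by 0.31 to 0.56 for *Kmt2c* to *Kmt2d* and by -0.85 to -0.70 for *Kdm6b* to *Kdm6a*, in the same direction in every mouse, and 5 mice cannot reach the threshold in an exact paired test. The causes of the other changes were not tested.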

Other observations

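The members' responses were also set beside their length in the genome, a comparison chosen after their values were seen. The 4 members with the longest span on the chromosome, *Kmt2c* (227.0 kb), *Kdm6a* (117.4 kb), *Kmt2a* (77.9 kb) and *Kmt2e* (69.8 kb), are those with the 4 highest log2 differences over both genotypes, and the shorter *Dot1l*, *Kmt2d*, *Setd1a*, *Kmt2b*, *Kdm6b* and *Men1* lie between -0.38 and 0.12. The rank correlation of span with the log2 difference was 0.73 over the 10 members and 0.04 over the 15190 genes tested that have a position. Among all genes, the share called higher was 20.3% for spans under 10 kb, 34.5% for spans of 50 to 100 kb and 29.6% above 100 kb. These are descriptions across genes, which are not independent replicates.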
